A study of Mus musculus with 2 samples.

Results

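The miR-30 family is a set of 7 microRNA hairpin genes of the mouse, Mir30a, Mir30b, Mir30c-1, Mir30c-2, Mir30d, Mir30e and Mir30f, chosen by their GENCODE M21 symbols out of 2202 annotated microRNA genes. MicroRNA sequencing was done on the heart of female B6CASTF1/J mice aged 18 to 20 months, F1 hybrids between the C57BL/6J and CAST/EiJ strains. The series has 1 group of 2 libraries, called biological replicates 1 and 2, whose tissue records are separate and whose donor record is shared, so whether they are separate animals is not known. No other genotype, treatment or age was measured, so the spreads and p-values below concern these 2 libraries only, and part of their difference may be technical. Reads were counted on mm10, and whether CAST/EiJ variants lower the count of any hairpin was not tested.

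A microRNA gene is transcribed into a longer RNA from which a hairpin is cut, and either arm of the hairpin can yield a mature microRNA of the 5′ (5p) or 3′ (3p) arm. The mature microRNA guides Argonaute to messenger RNAs, mostly by pairing of its seed, the stretch at bases 2 to 8 from its 5′ end. The miR-30 family is abundant in heart muscle, and its known targets include transcripts of connective tissue growth factor, a matrix protein linked to cardiac fibrosis, and of p53. Of its genes, 6 lie as 3 pairs of neighbours, which are taken to be cut from shared primary transcripts.

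Sequences of 5 of the 7 genes (Mir30a, Mir30c-1, Mir30c-2, Mir30e and Mir30f) were matched in RefSeq (GRCm38.p6). They are shown because sequence sharing decides which reads can be given to 1 gene. Capitals mark the seed, and U stands for T. The 5p arms of 3 microRNAs have the family seed GUAAACA.
mmu-miR-30a-5p: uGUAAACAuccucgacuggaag
mmu-miR-30e-5p: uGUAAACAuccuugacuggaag
mmu-miR-30c-5p: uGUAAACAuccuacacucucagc
The 3p arms of Mir30a and Mir30e share another seed, and those of Mir30c-1 and Mir30c-2 a further one.
mmu-miR-30a-3p: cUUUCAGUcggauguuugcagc
mmu-miR-30e-3p: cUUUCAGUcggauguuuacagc
mmu-miR-30c-1-3p: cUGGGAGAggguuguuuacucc
mmu-miR-30c-2-3p: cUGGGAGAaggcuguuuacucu
Bases 1 to 10 of the mature microRNA of Mir30f equal bases 2 to 11 of miR-30e-5p, the longest stretch they share, and its seed is another one.
mmu-miR-30f: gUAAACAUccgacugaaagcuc

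The 3 listed 5p arms were identical over their first 12 bases. Counting from 1 at the 5′ end, miR-30a-5p and miR-30e-5p differed by C13U alone, and miR-30a-3p and miR-30e-3p by G18A alone. Between miR-30c-1-3p and miR-30c-2-3p there were 3 differences, G9A, U12C and C22U. The seed GUAAACA was carried by 4 of 1679 mature microRNAs in the table, the 3 listed and miR-384-5p. Mir30b and Mir30d were not matched there, so this count leaves out their arms, whatever their seed. The seed of miR-30f was carried by 1, miR-30f itself.

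Mir30c-1 and Mir30c-2 encode the same miR-30c-5p, and their hairpins shared a stretch of 28 bases, in capitals in the next sequences.
Mir30c-1: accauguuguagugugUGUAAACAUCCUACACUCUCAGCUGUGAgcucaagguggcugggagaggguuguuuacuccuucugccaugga
Mir30c-2: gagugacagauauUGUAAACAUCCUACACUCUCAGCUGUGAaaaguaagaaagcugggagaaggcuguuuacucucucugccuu
A read of mature miR-30c-5p fits both loci equally. The files keep reads that map to more than 1 place in a row of their own, outside all gene counts, so the counts of Mir30c-1 and Mir30c-2 are no measure of miR-30c-5p. The other 7 distinct mature sequences above were each found in at most 1 of the 1005 hairpins of the table.

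Mir30f lies on the strand opposite to Mir30e at the same coordinates. The next sequence is the Mir30e hairpin, with the 22 bases that pair with miR-30f in capitals, of which 19 belong to miR-30e-3p.
Mir30e: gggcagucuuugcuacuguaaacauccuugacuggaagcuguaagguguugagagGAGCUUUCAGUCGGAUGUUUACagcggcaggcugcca

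The libraries held 9362013 reads in replicate 1 and 10549508 in replicate 2, and 3383676 and 3676084 of these were sense counts of annotated microRNAs. Reads mapping to more than 1 place took 43.9% and 43.2%. Levels below are in CPM, a gene's sense counts for every 1000000 that its library has over all genes. One read of a small RNA library stands for 1 short RNA whatever the length of its hairpin, so CPM values were compared between genes without division by length. Whether short RNAs of different sequence are read equally well was not tested, so ratios between genes are ratios of counts. Intervals and floors cover counting error only, since reads amplified without molecular identifiers are not independent molecules. All 8 striated muscle marker genes had counts, and 5 of them had 10 or more in each library, summing to 0.573% and 0.491% of sense counts over the list. Of 6 neuronal marker genes, 5 were at 0 in both libraries. Both lists hold genes named as several loci of 1 microRNA, such as Mir1a-1 and Mir1a-2 or Mir9-1 and Mir9-2. Reads that fit several loci are outside all gene counts, so low counts and zeros of such genes are no measure of muscle or neurons. Other cell types were present too, since endothelial Mir126a took 12.9% and 5.77%, the smooth muscle list 3.56% and 5.08%, and the white blood cell list 0.864% and 1.64%. Hepatocyte Mir122 took 0.00239% and 0.00171%, and the epithelial list 0.0173% and 0.0761%. Of the other lists, fibroblast genes took 0.523% and 0.447% and erythroid genes 0.418% and 0.194%. The fibroblast list too holds such loci, Mir199a-1 and Mir199a-2, so the shares of the lists do not rank the cell types. The part of the cell mixture in the levels of the miR-30 genes was not tested.

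Of the 7 miR-30 genes, 6 had 10 or more sense counts in each library, a level reached by 316 of all 2202 genes, and 1, Mir30f, had none. In all 3 clusters the hairpin that is transcribed first was the higher one, by more than 10-fold in both libraries. The 3 first hairpins, Mir30d, Mir30a and Mir30e, held 95.2% of the family's sense counts in replicate 1, with a Wilson 95% interval from 95.1 to 95.3, and 95.1% in replicate 2, from 94.9 to 95.2. The 3 second hairpins, Mir30b, Mir30c-1 and Mir30c-2, held the other 4.82% and 4.95%. Counts of Mir30c-1 and Mir30c-2 leave out miR-30c-5p, so this split and the gaps in their clusters cover only reads that fit 1 locus.

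**Figure D1:**
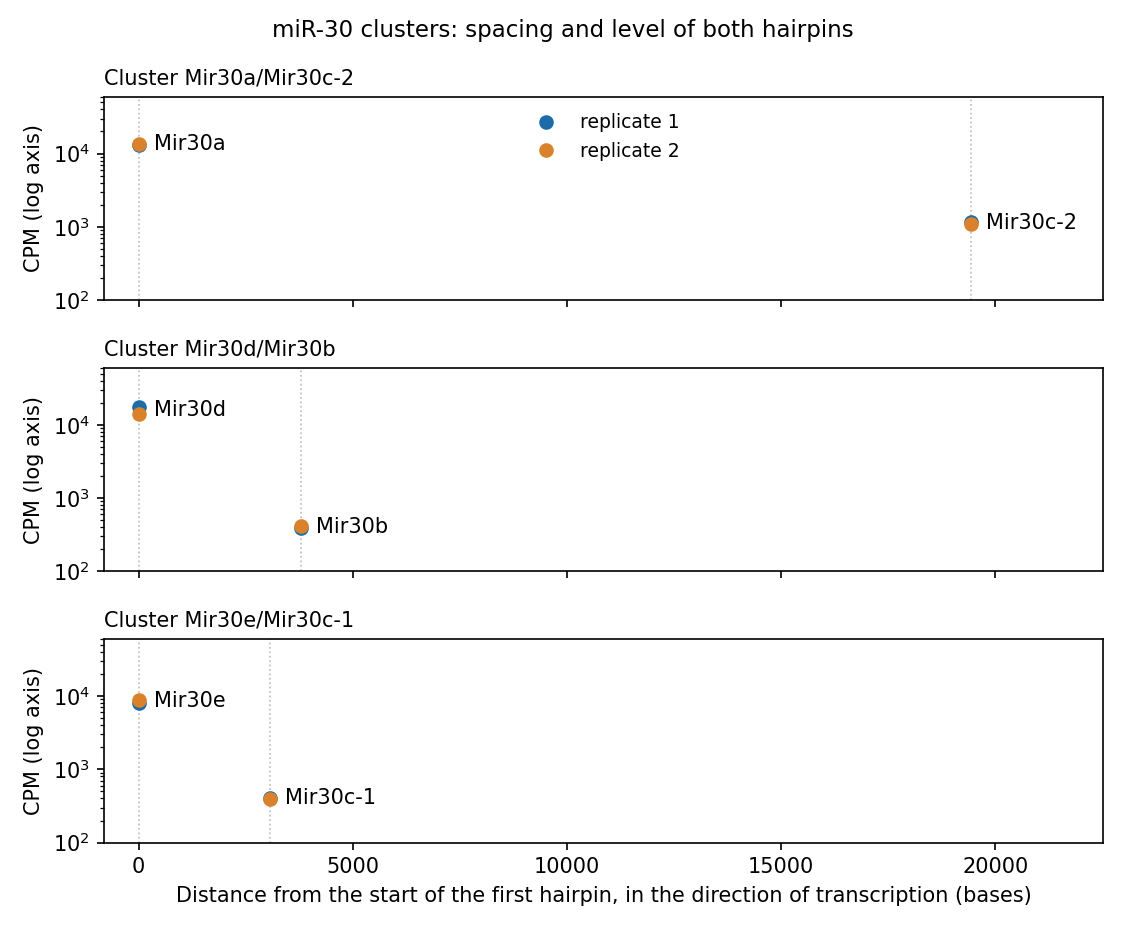
Each panel shows 1 miR-30 cluster, with the distance from the start of its first hairpin along the transcribed strand (bases) on the x axis and the level in CPM on a log y axis. Points are the 2 libraries and dotted lines mark hairpin positions. In each panel the first hairpin lies above the second, whether the starts are 3075, 3779 or 19432 bases apart. Levels of Mir30c-2 and Mir30c-1 leave out reads of miR-30c-5p, which fit both loci.

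The cluster on chromosome 1 holds Mir30a (ENSMUSG00000065405.3, mm10, 23272269 to 23272339, plus strand) and Mir30c-2 (ENSMUSG00000065567.1, 23291701 to 23291784). Mir30a, which overlaps no other annotated gene, had 13147 CPM in replicate 1 and 13549 CPM in replicate 2, or 13348 ± 284 CPM (SD, n = 2). Mir30c-2, which lies within an exon of the long noncoding RNA gene Gm27028, had 1145 and 1102 CPM, or 1123 ± 30.1 CPM (SD, n = 2). Both genes kept close to their means in both libraries, and every value of Mir30a lay above those of Mir30c-2.

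The cluster on chromosome 15 holds Mir30d (ENSMUSG00000065437.1, 68341208 to 68341289, minus strand) and Mir30b (ENSMUSG00000065476.2, 68337415 to 68337510). Mir30d, in an exon of the long noncoding RNA gene Gm20732, was the highest family member in both libraries, at 17389 CPM in replicate 1 and 13999 CPM in replicate 2. Its mean was 15694 ± 2397 CPM (SD, n = 2), the widest spread of the family. Mir30b, of which 16 bases overlap an exon of Gm26621, had 392 and 409 CPM, or 400.5 ± 12.6 CPM (SD, n = 2). On this chromosome the higher gene was thus the one that moved between the libraries, while the lower one stayed close.

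The cluster on chromosome 4 holds Mir30e (ENSMUSG00000065409.1, 120772606 to 120772697, minus strand) and Mir30c-1 (ENSMUSG00000065490.1, 120769534 to 120769622). Both lie in an intron of Nfyc, the gene of a subunit of the transcription factor NF-Y, on its coding strand. Mir30e had 7913 CPM in replicate 1 and 8950.0 CPM in replicate 2, or 8431 ± 733 CPM (SD, n = 2). Mir30c-1 had 411 and 389 CPM, or 400.2 ± 15.8 CPM (SD, n = 2), so that here the higher gene was lower in replicate 1 and the lower gene higher.

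Mir30f (ENSMUSG00000105585.1), opposite Mir30e, had 0 sense counts in both libraries, which allows up to 0.887 CPM in replicate 1 and 0.816 CPM in replicate 2 (3 counts). Its antisense column held 26774 and 32901 counts, the very numbers of sense counts of Mir30e, and the antisense column of Mir30e held 0 and 0. All reads counted at this locus thus lay on the strand of Mir30e.

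**Figure D2:**
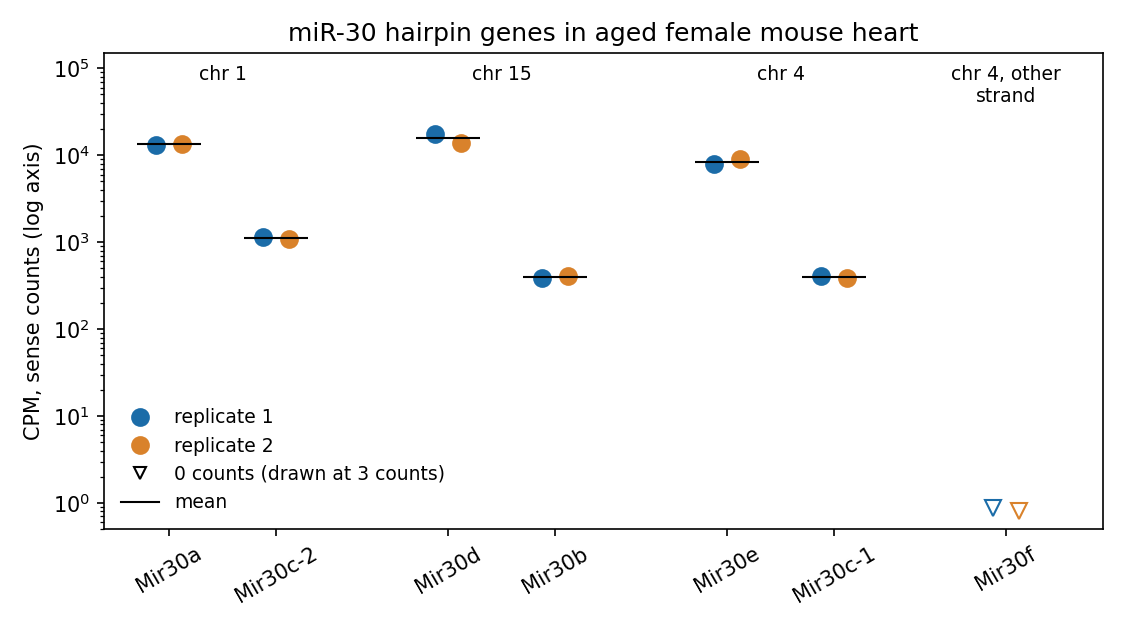
Points give the level of each miR-30 hairpin gene in both libraries, in CPM on a log axis, with black lines for means and open triangles for 0 counts, drawn at the level of 3 counts. Mir30d, Mir30a and Mir30e lie between 7913 and 17389 CPM, and Mir30b and Mir30c-1 both lie near 400 CPM. The levels of Mir30c-1 and Mir30c-2 leave out reads of miR-30c-5p, which fit both loci.

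By mean CPM the order was Mir30d, Mir30a, Mir30e, Mir30c-2, then Mir30b and Mir30c-1, ranking 15, 17, 21, 64, 90 and 91 among all genes. Mir30d exceeded Mir30a 1.32-fold in replicate 1, with an exact 95% interval from 1.31 to 1.34, and 1.03-fold in replicate 2, from 1.02 to 1.05, but their means lay closer together than the SD of Mir30d. Mir30a exceeded Mir30e by 1.66 times (1.64 to 1.69) and 1.51 times (1.49 to 1.54). Mir30e exceeded Mir30c-2 by 6.91 times (6.68 to 7.15) and 8.12 times (7.86 to 8.39). The counts of Mir30c-1 and Mir30b were not told apart, with ratios of 1.05 (0.974 to 1.13) and 0.95 (0.883 to 1.02), and their order turned between the libraries. Mir30c-2 stood at 2.78 times Mir30c-1 (2.62 to 2.96) and 2.83 times (2.67 to 3.01), a ratio over the reads that fit 1 of the 2 loci. The ranks of Mir30c-2 and Mir30c-1 and their ratios to other genes leave out reads of miR-30c-5p too, so they order counts only.

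Within clusters, Mir30a over Mir30c-2 was 11.5 in replicate 1 (exact 95% interval 11.1 to 11.9) and 12.3 in replicate 2 (11.9 to 12.7). Mir30d over Mir30b was 44.4 (42.1 to 46.9) and 34.2 (32.5 to 36.0). Mir30e over Mir30c-1 was 19.2 (18.2 to 20.3) and 23.0 (21.8 to 24.3). The intervals of the 3 ratios did not overlap each other in any library, and Mir30d over Mir30b was the largest ratio of counts. The counts of Mir30c-2 and Mir30c-1 leave out reads that fit both loci, so their ratios say nothing of the mature microRNAs as a whole. Sequences of Mir30d and Mir30b were not matched, so whether their reads fit other loci was not tested. The ratios are thus not like measures, and their order holds for counts only.

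These ratios were set beside those of 170 other pairs of neighbouring microRNA genes, on the same strand, under 10 kb apart and with 10 or more counts in each library. The other pairs had a median size of the log2 ratio of 2.01, or 4.03-fold, with a range of 0.0027 to 9.70, against 3.57 for Mir30a and Mir30c-2, 5.28 for Mir30d and Mir30b and 4.39 for Mir30e and Mir30c-1. A larger log2 ratio was found in 47, 16 and 29 of the other pairs. The pairs share genes and 81 of them lie on chromosome 12, so they are a description only. Mir30a and Mir30c-2 lie further apart than 10 kb, and among 231 pairs under 20 kb the median was 1.99. The hairpin transcribed first was the higher one in both libraries in 85 of the 170 other pairs (50%), against all 3 miR-30 pairs. The second hairpins Mir30c-2 and Mir30c-1 are counted without reads of miR-30c-5p, which can only lower them. The part of this counting in the order and in the log2 ratios was not tested, for these or for the other pairs.

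Each within-cluster ratio changed between the libraries, which needs no scaling to see. Replicate 1 minus replicate 2, the log2 ratio of Mir30d over Mir30b changed by 0.38 (two-sided Fisher's exact test on counts, adjusted p = 5.09e-11). That of Mir30e over Mir30c-1 changed by -0.26 (exact test, adjusted p = 1.81e-05), and that of Mir30a over Mir30c-2 by -0.10 (exact test, adjusted p = 0.0106). The p-values were adjusted by Benjamini-Hochberg over all 173 pairs, of which 43.9% were called (41% of 234 pairs under 20 kb, again with all 3 miR-30 pairs among them), and they set these libraries against counting noise. In size the 3 changes (0.10 to 0.38) lay below the median change of the other pairs (0.50), and 24, 72 and 55 of the 170 changed by less than the pairs Mir30a and Mir30c-2, Mir30d and Mir30b, and Mir30e and Mir30c-1. The other pairs were not matched to them in counts, and counting noise widens the changes of pairs with low counts. Mir667 and Mir376c, for example, changed by 1.19 and were not called.

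**Figure D3:**
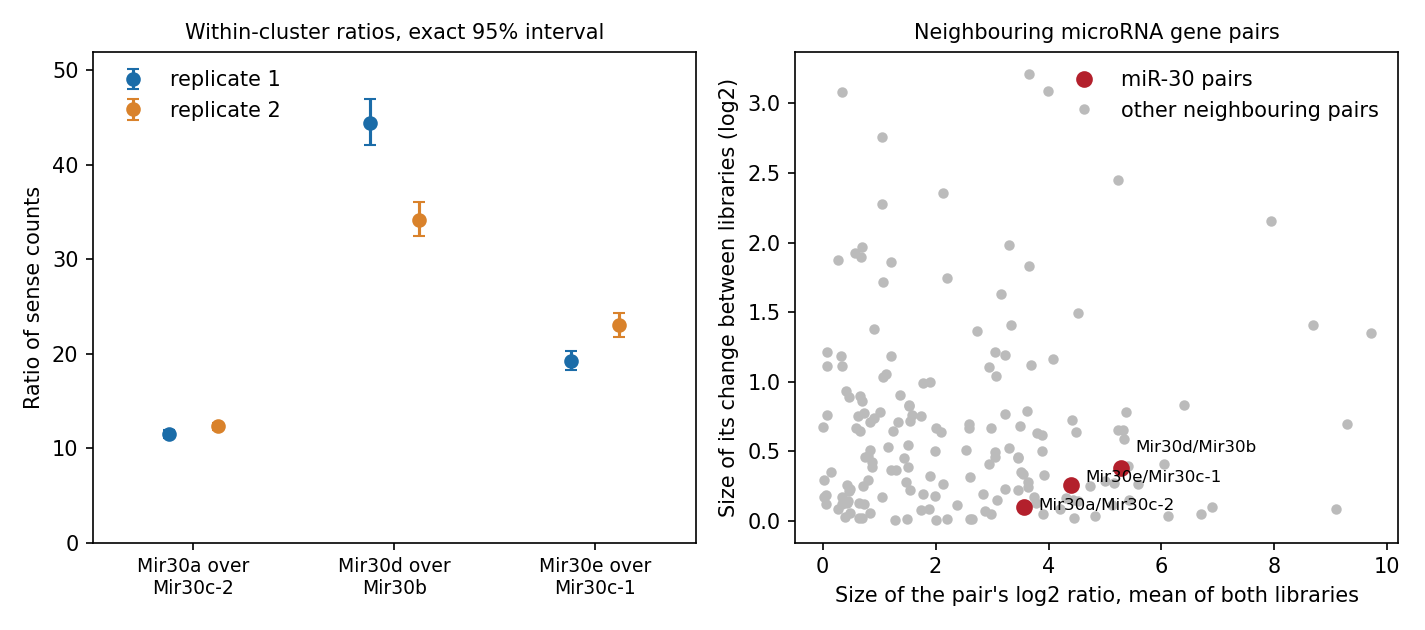
Left, ratio of sense counts within each miR-30 cluster in both libraries, with exact 95% intervals of counting error. Right, for each of 170 other neighbouring pairs (grey) and the 3 miR-30 pairs (red), the size of the log2 ratio on the x axis and of its change between libraries on the y axis. The miR-30 pairs lie right of the other pairs' median of 2.01 and below their median change of 0.50.

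The family as a whole took 4.04% of sense gene counts in replicate 1, with a Wilson 95% interval from 4.02 to 4.06, and 3.84% in replicate 2, from 3.82 to 3.86, or 3.94% ± 0.141 (SD, n = 2). The 11 let-7 genes took 22.7% and 25.4%, and the 4 miR-29 genes took 3.50% and 2.03%. Shares of these families leave out reads that fit several loci. Within the miR-30 family, the cluster of Mir30d and Mir30b held 44.0% (43.8 to 44.3) and 37.5% (37.3 to 37.8). That of Mir30a and Mir30c-2 held 35.4% (35.1 to 35.6) and 38.2% (37.9 to 38.4). That of Mir30e and Mir30c-1 held 20.6% (20.4 to 20.8) and 24.3% (24.1 to 24.5). By these counts the chromosome 15 cluster was the largest in replicate 1 and the chromosome 1 cluster in replicate 2, while the chromosome 4 cluster was the smallest in both. The clusters of Mir30c-2 and Mir30c-1 are counted without reads of miR-30c-5p, so this order need not hold for all their reads.

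Single genes of the family differed little between the libraries. Their log2 ratios of replicate 1 over replicate 2 after TMM scaling (edgeR's trimmed mean scaling of library sizes) ran from -0.05 to 0.44, all 6 within 2-fold, as were 246 of the 316 genes tested (77.8%). The median size of the log2 ratio was 0.13 for the 6 genes and 0.45 for all 316, which were not matched to them in counts. An exact binomial test, adjusted by Benjamini-Hochberg over the 316 genes, called 5 of the 6 at 0.05, where 60.4% of all genes were called. Of these, 4 were higher in replicate 1, where 27.2% of all genes were, and 1 was lower, where 33.2% were. With library totals 3 of the 6 were called (62.7% of all genes), 1 higher (22.2%) and 2 lower (40.5%). With DESeq2 size factors 4 were called (59.2% of all genes), all 4 higher (29.7%) and 0 lower (29.4%). In bulk tissue, fewer cells of a type and less RNA per cell cannot be told apart.

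Mir30d had the widest difference, with 58839 sense counts in replicate 1 and 51460 in replicate 2 (log2 ratio 0.44, or 1.35-fold; exact binomial test, adjusted p below 1e-300). It was higher in replicate 1 under each of the 6 alternatives tried, with log2 ratios from 0.31 to 0.49. Mir30c-1 (log2 ratio 0.20; exact binomial test, adjusted p = 0.000367) and Mir30c-2 (0.18; adjusted p = 1.06e-07) were called higher in replicate 1 too, but neither call holds with library totals (adjusted p = 0.196 and 0.133). Mir30a was called higher (log2 ratio 0.080; exact binomial test, adjusted p = 5.20e-17) and, with library totals, called lower (-0.043; adjusted p = 9.00e-06). Mir30e was called lower (-0.054; exact binomial test, adjusted p = 1.33e-05), which is lost with DESeq2 size factors (adjusted p = 0.999) and at a minimum of 100 counts (adjusted p = 0.402). Mir30b was not called, with a log2 ratio of 0.060, or -0.064 with library totals (exact binomial test, adjusted p = 0.358 and 0.315). Over all tested genes the median log2 ratio was -0.18 with library totals and -0.05 with TMM. Relative to that median, the members lay at the same distances under either scaling.

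**Figure D4:**
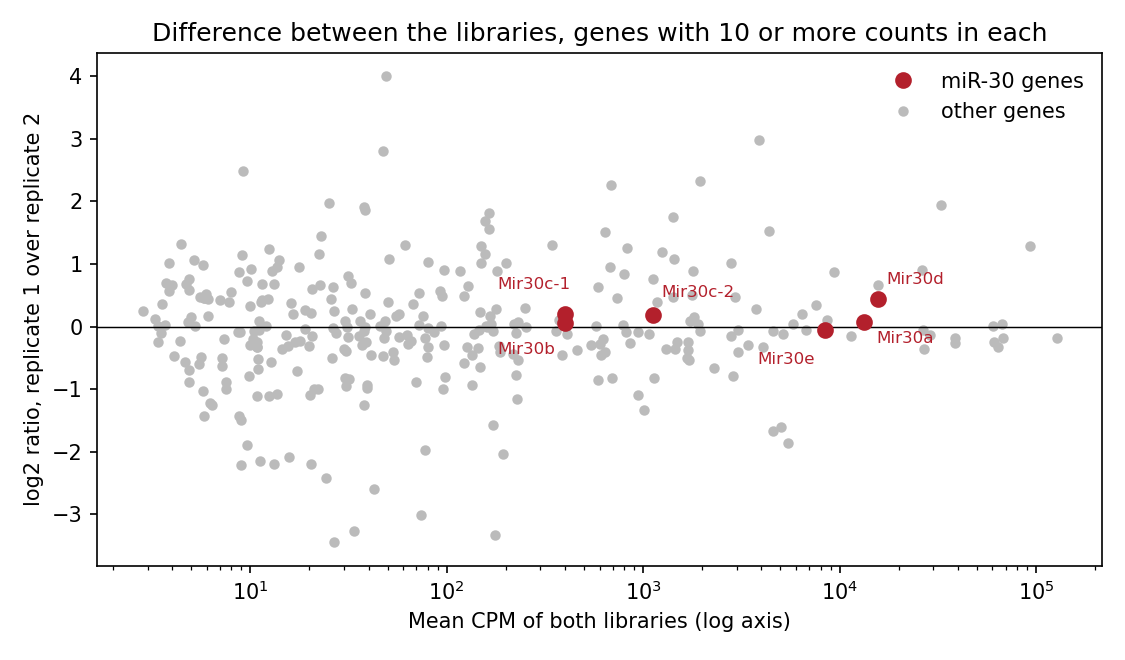
Each point is 1 of the 316 genes with 10 or more counts in each library, with its mean CPM on a log x axis and the log2 ratio of replicate 1 over replicate 2, after TMM scaling, on the y axis. The 6 miR-30 genes (red) lie between -0.05 and 0.44, and the other genes (grey) reach from -3.45 to 4.00.

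For each of the 6 counted genes, the gene outside the family closest to it in log2 CPM over both libraries was found. Mir30d lay closest to Mir149 (18619 and 12753 CPM), at a Euclidean distance of 0.17. Mir30a lay closest to Mir191 (10389 and 12582 CPM, distance 0.36) and Mir30e to Mir99b (8552 and 8616 CPM, distance 0.12). Mir30c-2 lay closest to Mir185 (1292 and 1069 CPM, distance 0.18). Mir30b and Mir30c-1 shared a nearest gene, Mir132 (402 and 403 CPM, distances 0.045 and 0.060). A likeness over 2 libraries is one of level only, and the levels of Mir30c-2 and Mir30c-1 leave out reads of miR-30c-5p.

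The strand of the count decided whether Mir30e was seen. In the column for reads on either strand, Mir30e stood at 0 in both libraries, and its locus is annotated for 1 gene on each strand. The files keep reads that cannot be given to 1 gene in a row of ambiguous reads, and its 26774 and 32901 sense counts equal 2.89% and 3.86% of that row. Of 708 genes with sense counts, 38 were at 0 in the either-strand column, and Mir30e was the third highest of them. The other 5 counted miR-30 genes had the same counts in both columns.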

How the data were processed

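The authors deposited raw counts of reads for every microRNA gene, 1 file a library, with columns for either, sense and antisense strand. The mm10 build and GENCODE M21 are named in the readme that the authors deposited. Aligner and counter: not given in the sources used here. The 4 rows for unmapped, multimapping, featureless and ambiguous reads were kept out of library sizes. They took 14.9%, 43.9%, 5.07% and 0% of reads in replicate 1 and 16.2%, 43.2%, 5.75% and 0% in replicate 2 (sense column). All 2202 identifiers matched GENCODE M21. The sense column was the main one, with totals of 3383676 and 3676084, and genes with at least 10 counts in both libraries were tested.

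With 1 group there was no contrast between conditions. Shares have Wilson 95% intervals and ratios exact 95% intervals. The libraries were compared per gene by a two-sided exact binomial test with edgeR 4.0.16 TMM sizes, adjusted by Benjamini-Hochberg over 316 genes at 0.05, and cluster ratios by Fisher's exact test. The adjustment over 3 clusters first planned was replaced by one over 173 pairs, and all 3 calls were the same. Alternatives used DESeq2 1.42.0 size factors, library totals, other minimum counts, thinning, the either-strand column and other denominators. The named genes are all members, genes that overlap them and the nearest gene of each counted member. Others are the let-7 and miR-29 families by share and marker genes of the cell type lists, of which Mir126a and Mir122 are the only gene of their list. The name miR-384-5p was added after its sequence was seen, and Mir667 and Mir376c were picked as an example after their values were seen. Members and lists were chosen with earlier results of these data known. The library test was tested on data simulated with counting noise and set changes alone, which leaves out other variation between libraries. Tables and exact tests used Python 3.11.15 with pandas 2.3.3 and scipy 1.17.1, and the library test used R 4.3.3.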

Additional observations from a re-analysis of the deposited data

Results flagged for a closer look

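The antisense column, outside the sense counts used for levels, held 26774 counts for Mir30f in replicate 1 and 32901 in replicate 2, above the 3 counts that a count of 0 allows. They equal the sense counts of Mir30e, which lies on the other strand at the same coordinates.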

How the results depend on the processing

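With the either-strand column, which lists Mir30e at 0, the family share became 4.15%, Mir30e over Mir30c-1 became 0, and the clusters of Mir30a, Mir30d and Mir30e held 46.9%, 51.8% and 1.29% of the family. Counting multimapping reads in the denominator lowered the family share to 1.77%, by construction. Counts per base of hairpin, an alternative chosen after seeing the data, moved the mean ratio of Mir30a over Mir30c-2 from 11.9 to 14.1. The mean ratio of Mir30d over Mir30b went from 39.3 to 46.0, and that of Mir30e over Mir30c-1 from 21.1 to 20.4. Library totals called 3 of 6 members and turned the log2 ratios of Mir30a to -0.043 and Mir30b to -0.064, and DESeq2 size factors turned that of Mir30e to 0.00056. A scaling moves the log2 ratios of all genes by 1 constant, so these turns come from the scaling and say nothing of the members themselves. Leaving out a library gave family shares of 3.84% and 4.04%, which are the values of the single libraries and no check of stability. The changes of within-cluster ratios kept direction and call under thinning and under either adjustment, and that of Mir30e over Mir30c-1 could not be computed in the either-strand column. No paired analysis was possible because there is 1 group. The floor of 3 counts applies to Mir30f alone. Depth also limits the members with fewer counts, as in Mir30c-1 over Mir30b, 1.05 in replicate 1 with an interval from 0.974 to 1.13. In that ratio Mir30c-1 is counted without reads of miR-30c-5p.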

Other observations

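Mir384, whose miR-384-5p has the seed of the miR-30 5p arms, had 3 sense counts in each library, or 0.887 CPM in replicate 1 and 0.816 CPM in replicate 2. It was chosen after its sequence and counts were seen. The hairpins of Mir30a and Mir30e shared a stretch of 18 bases in the 3p arm, shorter than either mature 3p sequence.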
